A study of Homo sapiens with 8 samples.

Results

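The nuclear genes for subunits of respiratory complexes I to IV were described in 22RV1 and DU145 cells. The 58 genes were taken by symbol from a fixed list, and all 58 were found among the 58828 genes of the count tables: 35 of complex I, 4 of complex II, 9 of complex III and 10 of complex IV. 22RV1 and DU145 are established human prostate cancer cell lines, the former with androgen receptor and the latter largely without it. RNA was sequenced from each line carrying an empty vector or PAGE4, a prostate-associated gene of the PAGE family, and treated with PBS or with 200 mM H2O2 for 12 h, to ask how PAGE4 bears on the response of prostate cancer cells to oxidative stress. The dose is printed as the sample labels and the study's methods give it. Other H2O2 treatments in the study used lower doses, and nothing in the files checks the dose of these libraries. The conditions were thus 22RV1 vector, 22RV1 PAGE4, DU145 vector and DU145 PAGE4 cells, each with PBS and each with H2O2. By the study's methods, HA-tagged PAGE4 was carried by a lentiviral, doxycycline-inducible construct in puromycin-selected cells, and all transduced cells, vector cells included, received doxycycline. Each of the 8 conditions has 1 library, so the 4 pairs of libraries that differ only in H2O2 stand in for replicates of the H2O2 effect, and the 4 that differ only in PAGE4 for those of the PAGE4 effect.

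Complex I passes electrons from NADH, and complex II from succinate, to ubiquinone, complex III passes them on to cytochrome c, and complex IV to oxygen, while complexes I, III and IV pump protons for ATP synthase. Most subunits are encoded in the nucleus and imported, and a small hydrophobic set is made from mitochondrial DNA, so the complexes need both genomes. Complexes I and III are also the best-known sites at which the chain leaks superoxide, which is turned into H2O2, and iron-sulphur clusters in several subunits are sensitive to it.

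Total counts ranged from 25482984 to 43310401 per library, with a median of 29843277, and the 58 genes took from 0.368% to 0.539% of them. All 58 passed the filter on low counts, among 19537 genes tested. PAGE4 had 0 or 1 reads in the vector libraries and 1001 to 1489 in the PAGE4 libraries. All 6 markers of 22RV1 cells were higher in 22RV1 than in DU145 cells, and 4 of 6 markers of DU145 cells were lower, with LGALS1 higher and CD44 not called (called means an adjusted p under 0.05). Of 6 genes that respond to oxidants, 6 rose with H2O2 in 22RV1 cells, whereas 2 rose and NQO1 fell in DU145 cells. Levels are given in CPM, which are counts brought to a common library size by TMM scaling. HMOX1, which breaks down heme, went from 3.44 to 133 CPM in 22RV1 vector cells and from 86 to 121 in DU145 vector cells.

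Many promoters of respiratory genes are bound by the factors NRF1 and GABPA (also called NRF2, and not the oxidant-response factor NFE2L2). RefSeq promoters, from 250 bases before to 50 after the gene's start on GRCh38.p14, were found for 50 of the 58 genes. The NRF1 motif GCANGCGC, searched on both strands as all motifs here, was in 36.0% of the 50 and in 12.2% of 27305 promoters. The ETS motif CCGGAAGT, to which GABPA binds, was in 16% against 4.4%, and the YY1 motif AAGATGGCG in 14% against 1.8%. TCAAGGTCA, the ESRRA motif, was in 2.0% against 0.4%, and TGACNNNGC, part of the NFE2L2 element, in 18.0% against 13.6%. At least 1 of the NRF1 and ETS motifs was in 23 of the 50, against 15.6% of all promoters, and none of the 5 motifs in another 23, against 71.9% of all promoters. The median GC content was 61.0% in the 50 and 58.3% in all promoters. A match is a string of letters and not a measured site. The 250 bases before the start are printed for 4 genes whose values follow, a pair that fell in both lines (NDUFS1 and SDHA) and a pair that rose in DU145 cells (SDHD and UQCRFS1), 5′ to 3′ on the gene's strand, with NRF1 and ETS motifs in capitals.
NDUFS1, chr2:206159445-206159694, minus strand: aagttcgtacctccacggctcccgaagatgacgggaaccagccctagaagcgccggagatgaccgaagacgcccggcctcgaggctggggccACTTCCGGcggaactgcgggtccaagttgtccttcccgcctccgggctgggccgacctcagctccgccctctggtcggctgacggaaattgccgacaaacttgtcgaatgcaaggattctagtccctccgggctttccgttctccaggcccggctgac
SDHA, chr5:218070-218319, plus strand: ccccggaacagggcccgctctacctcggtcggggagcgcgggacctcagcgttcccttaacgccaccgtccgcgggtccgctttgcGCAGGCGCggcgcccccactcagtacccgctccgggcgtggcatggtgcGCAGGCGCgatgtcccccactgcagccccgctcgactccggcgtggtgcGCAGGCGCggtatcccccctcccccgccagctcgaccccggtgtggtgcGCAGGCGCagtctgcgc
SDHD, chr11:112086623-112086872, plus strand: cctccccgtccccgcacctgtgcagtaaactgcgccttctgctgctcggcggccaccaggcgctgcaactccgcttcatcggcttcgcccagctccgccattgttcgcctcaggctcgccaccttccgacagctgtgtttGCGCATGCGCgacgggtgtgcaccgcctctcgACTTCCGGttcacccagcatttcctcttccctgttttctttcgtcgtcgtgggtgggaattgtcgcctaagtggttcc
UQCRFS1, chr19:29213152-29213401, minus strand: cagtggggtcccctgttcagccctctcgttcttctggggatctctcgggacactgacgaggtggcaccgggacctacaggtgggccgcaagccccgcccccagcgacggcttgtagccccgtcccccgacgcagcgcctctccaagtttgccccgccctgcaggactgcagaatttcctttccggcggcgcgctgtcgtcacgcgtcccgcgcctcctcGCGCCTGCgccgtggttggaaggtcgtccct
The SDHA promoter holds 4 NRF1 motifs at a spacing of 49 bases each, SDHD holds 2 overlapping NRF1 motifs, and 1 ETS motif, UQCRFS1 holds 1 NRF1 motif, and NDUFS1 holds 1 ETS motif. Among these genes, picked by their direction with H2O2, NRF1 motifs stood before SDHA, which fell, and before SDHD and UQCRFS1, which rose in DU145 cells. Whether the motifs go with the H2O2 response over the 50 promoters was not tested.

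The subunit genes differed widely in level. The mean over the 8 libraries ran from 2.28 CPM for NDUFA7 to 256.9 CPM for UQCRC1, a core subunit of complex III. Per kilobase of annotated exon, the median of the 58 was 19.3 CPM, and it was 54.8 CPM with the length of the main transcript. The highest per kilobase was COX8A, a small subunit of complex IV, at 327 CPM per kilobase. In complex I the highest was NDUFS5 at 109, and the lowest NDUFV2 at 1.27 CPM per kilobase. Complex II ran from 19.0 for the membrane anchor SDHD to 82.1 CPM per kilobase for the other anchor, SDHC. Complex III ran from 6.03 for UQCRB to 111.2 CPM per kilobase for CYC1, the cytochrome c1 subunit. COX6C was the lowest of complex IV at 14.7 CPM per kilobase. Exons of another gene cover over 50% of the main transcript of 7 members in GENCODE 44, among them NDUFV2 (90%), NDUFA13 (83.9%), NDUFA7 (77.9%), NDUFB8 (72%) and NDUFA11 (68.2%), the 5 members with the lowest mean CPM. How the counting treated reads in such exons was not stated, and its part in these low levels was not tested. The other 2 were SDHA (69.4%) and NDUFS7 (51.3%).

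With H2O2, more subunit genes were lower than higher. Over the 4 pairs, 11 of the 58 genes fell and 1 rose, by the quasi-likelihood test of edgeR with Benjamini-Hochberg adjusted p, whereas 13.5% of all genes tested fell and 9.37% rose. The genes that fell were 19% of the 58, not far above the background. Over the 58 genes, the median log2 fold change was -0.15, against -0.05 over all genes, and 45 of the 58 were negative. Part of that count goes with the negative median of all genes. Against the median of all genes in the pair, 38 of the 58 were lower in 22RV1 vector and 48 in 22RV1 PAGE4 cells. In DU145 cells these counts were 41 with the vector and 36 with PAGE4. In all 4 pairs, 28 of the 58 genes were lower with H2O2, against 24.4% of all genes, and 4 were higher (NDUFV2, NDUFA11, UQCRFS1 and UQCR11), against 20.3%. The libraries of a line with different constructs are not replicates of one condition, and nothing in the sources says whether they come from separate cultures, so p-values measure only the spread between these libraries.

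The core of complex I, which carries the flavin and the iron-sulphur clusters, held the largest changes. NDUFS1, the largest of these subunits and the holder of several clusters, was at 212 CPM with PBS and 130 with H2O2 in 22RV1 vector cells, and at 230 and 170 in 22RV1 PAGE4 cells. In DU145 cells it was at 123 and 75.5 in vector cells, and at 120 and 76.5 in PAGE4 cells. NDUFS1 was thus lower with H2O2 in every pair, and within each line the PBS and H2O2 libraries did not overlap. NDUFS1 lies on the minus strand of chromosome 2 at 206114817 to 206159509 (GRCh38, GENCODE 44). Its log2 fold change over the pairs was -0.63 ± 0.09 (SE, adjusted p = 0.00467), the lowest of the 58.

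NDUFV1, which binds NADH and the flavin, was at 183 CPM with PBS and 122 with H2O2 in 22RV1 vector cells, and at 198 and 147 in 22RV1 PAGE4 cells. In DU145 cells it went from 191 to 154 in vector cells and from 206 to 160 in PAGE4 cells. All 4 PBS libraries lay above all 4 H2O2 libraries, and the log2 fold change was -0.42 ± 0.09 (SE, adjusted p = 0.0153). NDUFS8, which holds clusters near the ubiquinone site, fell by 0.44 on the log2 scale (SE 0.08, adjusted p = 0.0103), from 164 to 125 and from 164 to 119 CPM in 22RV1 cells and from 235 to 174 and from 241 to 171 CPM in DU145 cells. The PBS libraries of each line were above its H2O2 libraries, and all 22RV1 libraries lay below all DU145 libraries. The other core subunits, NDUFS3 (log2 fold change 0.03 ± 0.09, adjusted p = 0.847) and NDUFS7 (-0.15 ± 0.10, adjusted p = 0.331), were not called.

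NDUFV2, a further cluster subunit of the NADH-binding module, was the only one of the 58 genes that rose over the 4 pairs. It was at 2.26 CPM with PBS and 4.56 with H2O2 in 22RV1 vector cells, and at 2.13 and 4.40 in 22RV1 PAGE4 cells. In DU145 cells it was at 1.88 and 4.50 in vector cells and at 2.12 and 5.76 in PAGE4 cells. All H2O2 libraries lay above all PBS libraries, and the log2 fold change was 1.18 ± 0.20 (SE, adjusted p = 0.00817). These values rest on 52 to 180 reads per library, far fewer than for the other core subunits, and a lncRNA on the same strand covers 90% of its main transcript. The part of this overlap in the rise was not tested.

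Among accessory subunits of complex I, 4 of 13 NDUFB and NDUFC genes fell over the 4 pairs, and none of 12 NDUFA genes or of 4 NDUFS and NDUFV genes was called. The median log2 fold change was -0.20 for the NDUFB and NDUFC genes, of the membrane arm, and -0.04 for the NDUFA genes. NDUFB6 was at 32.2 and 35.3 CPM with PBS and 27.6 and 26.5 with H2O2 in 22RV1 vector and PAGE4 cells, and at 16.2 and 15.1 with PBS and 9.12 and 10.2 with H2O2 in DU145 cells. Its PBS libraries were above the H2O2 libraries within each line (log2 fold change -0.50 ± 0.14, adjusted p = 0.0346). NDUFB3 (-0.43 ± 0.12, adjusted p = 0.0374), NDUFB5 (-0.41 ± 0.11, adjusted p = 0.0363) and NDUFB10 (-0.36 ± 0.09, adjusted p = 0.0288) fell likewise.

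In complex II, which is also an enzyme of the citric acid cycle and has no subunit from mitochondrial DNA, 2 of 4 genes fell over the pairs. SDHA, the flavoprotein that oxidizes succinate, went from 219 to 164 CPM with H2O2 in 22RV1 vector cells and from 235 to 184 in 22RV1 PAGE4 cells. In DU145 cells it went from 324 to 254 in vector cells and from 353 to 261 in PAGE4 cells. It was lower in every pair by about the same factor (log2 fold change -0.39 ± 0.08, adjusted p = 0.0156). Rows of SDHA pseudogenes held reads equal to 14% of its own, and with them added the log2 fold change was -0.35 ± 0.08 (adjusted p = 0.0235). SDHC, a membrane anchor, fell by 0.51 on the log2 scale (SE 0.11, adjusted p = 0.0138). SDHB, the iron-sulphur subunit, had a log2 fold change of -0.22 ± 0.09 (adjusted p = 0.108).

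In complexes III and IV, 1 gene each was called. UQCR10 was called in complex III (-0.35 ± 0.10, adjusted p = 0.0383), and COX6B1, on the outer face of complex IV, in complex IV (-0.30 ± 0.09, adjusted p = 0.0402). These 2 genes are named for being the only ones called, after their values were seen. All 10 complex IV genes had a negative log2 fold change, from -0.30 to -0.03. The core subunits UQCRC1 (-0.26 ± 0.09, adjusted p = 0.0622) and UQCRC2 (-0.20 ± 0.09, adjusted p = 0.143), CYC1 (-0.23 ± 0.09, adjusted p = 0.0896), COX4I1 (-0.12 ± 0.10, adjusted p = 0.403), COX5A (-0.03 ± 0.09, adjusted p = 0.85) and COX5B (-0.16 ± 0.10, adjusted p = 0.275) were not called.

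**Figure D1:**
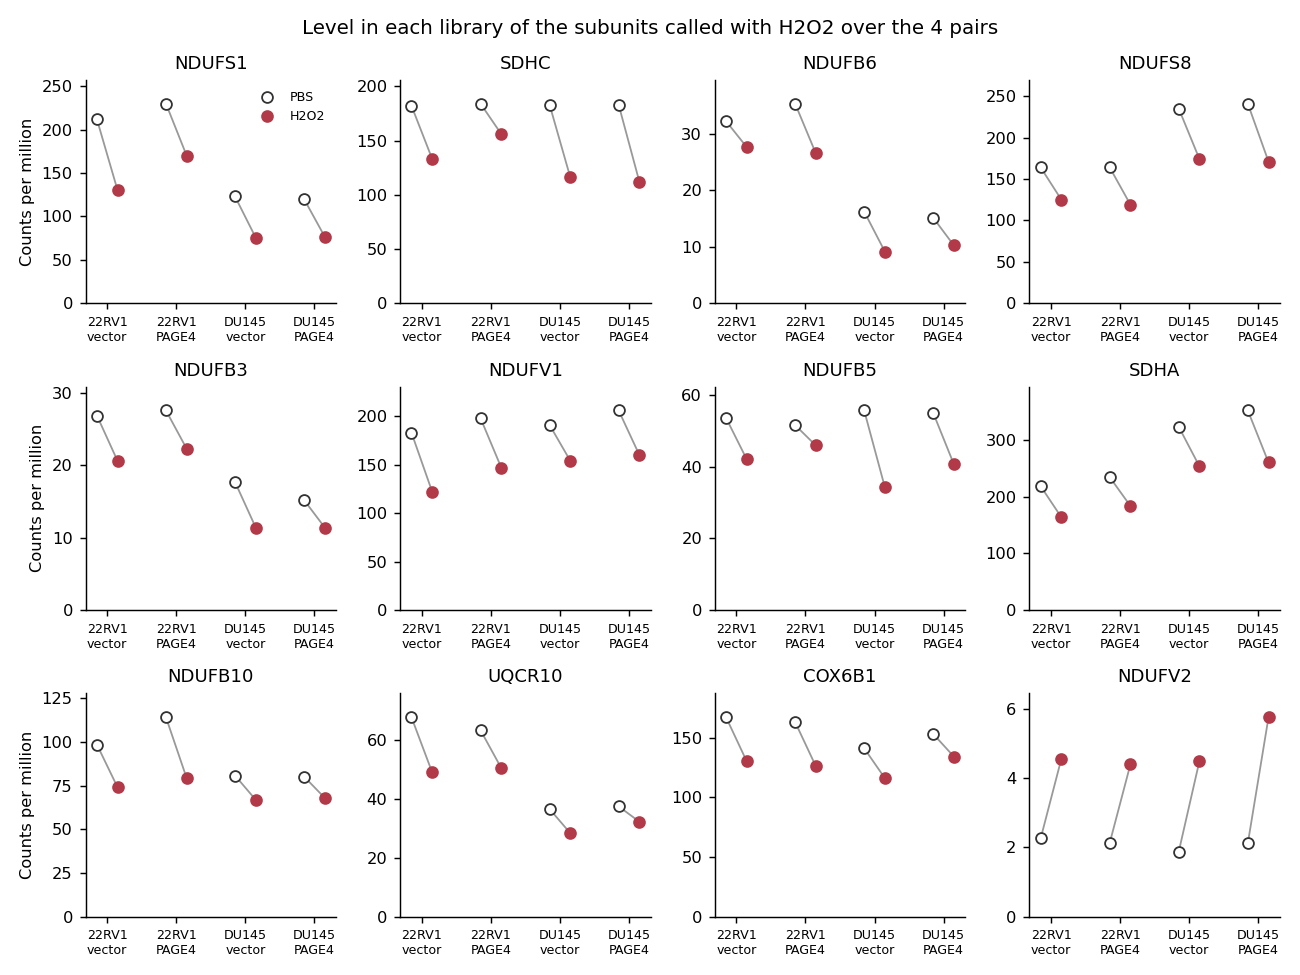
TMM-scaled CPM (y axis, from 0) of the 12 subunit genes called with H2O2 over the 4 pairs, with PBS (open points) and H2O2 (filled points) for each line and construct on the x axis; each point is 1 library and a line joins the 2 libraries of a pair. In 11 genes the H2O2 point lies below the PBS point in all 4 pairs, and in NDUFV2 it lies above.

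The count of calls depended on the pairs and the scaling. Without the 22RV1 vector pair or without the DU145 vector pair 3 genes were called, without the DU145 PAGE4 pair 4, and without the 22RV1 PAGE4 pair 7, and NDUFS1 and NDUFV2 were called in each. Scaling by total counts in place of TMM raised the median log2 fold change of all genes by 0.18 in the 22RV1 vector pair and by 0.16 in the 22RV1 PAGE4 pair, and 5 genes then fell and 2 rose over the 4 pairs. In the 22RV1 vector pair the direction of the subunit genes turned, from a median of -0.13 with 45 of 58 genes lower to a median of 0.05 with 23 of 58 lower. Against the median of all genes, a difference that no scaling moves, the median of the 58 genes stood at -0.05 in 22RV1 vector cells, -0.21 in 22RV1 PAGE4 cells, -0.16 in DU145 vector cells and -0.05 in DU145 PAGE4 cells.

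Within 22RV1 cells, 21 of the 58 genes fell and 1 rose, against 20% and 12.9% of all genes. The spread in the within-line tests was estimated from all 8 libraries. Scaled by total counts, 6 fell and 3 rose. The lowest log2 fold changes were those of NDUFC2 (-0.62 ± 0.16, adjusted p = 0.00459), NDUFS1 (-0.57 ± 0.08, adjusted p = 2.71e-05), NDUFV1 (-0.51 ± 0.08, adjusted p = 4.41e-05), NDUFB10 (-0.47 ± 0.09, adjusted p = 0.000268) and NDUFA1 (-0.47 ± 0.14, adjusted p = 0.0167). Genes that fell were spread over all complexes: 9 of 35 in complex I, 3 of 4 in complex II, 4 of 9 in complex III and 5 of 10 in complex IV, COX4I1 (-0.24 ± 0.08, adjusted p = 0.0195) and COX5B (-0.30 ± 0.08, adjusted p = 0.00868) among them. NDUFA1 was no longer called without the 22RV1 PAGE4 pair (-0.36), with total counts (-0.30) or with the Wald test of DESeq2 (-0.43). With total counts 0 of the complex IV genes and 0 of the complex III genes fell in 22RV1 cells.

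Within DU145 cells, 15 genes fell and 4 rose, against 21.7% and 20.8% of all genes. NDUFB6 (-0.70 ± 0.14, adjusted p = 0.000575), SDHC (-0.68 ± 0.08, adjusted p = 1.39e-06), NDUFS1 (-0.68 ± 0.09, adjusted p = 2.59e-06), NDUFB5 (-0.57 ± 0.11, adjusted p = 0.000224) and NDUFB3 (-0.53 ± 0.14, adjusted p = 0.00577) had the lowest values. Besides NDUFV2 (1.35 ± 0.28, adjusted p = 0.000595), the genes that rose were NDUFA12 of complex I (0.45 ± 0.11, adjusted p = 0.00237), the anchor SDHD (0.37 ± 0.10, adjusted p = 0.00468) and UQCRFS1, the Rieske iron-sulphur subunit of complex III (0.40 ± 0.08, adjusted p = 0.000553). UQCRFS1 went from 102 to 141 CPM in vector cells and from 112 to 143 in PAGE4 cells. NDUFA12 went from 33.0 to 46.4 and from 34.7 to 46.3 CPM. For both, the H2O2 libraries lay above the PBS libraries. Without the DU145 vector pair 10 genes were called, and likewise 10 without the DU145 PAGE4 pair.

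The calls of the 2 lines overlapped in part. Their fold changes share no library, but their tests share a common estimate of spread and a common scaling from all 8 libraries. Of the genes that fell, 9 were called in both lines, which is 15.5% of the 58, against 10.9% of all genes tested. They were 42.9% of those that fell in 22RV1 and 60% of those that fell in DU145 cells. Over all genes tested these shares were 54.4% and 50.1%, so the overlap was not particular to the subunit genes. The 9 genes were NDUFS1, NDUFS8, NDUFV1 and NDUFB10 of complex I, SDHA and SDHC of complex II, UQCRC1 and UQCR10 of complex III, and COX6B1 of complex IV. NDUFV2 rose in both, and none of the 58 was called in opposite directions, against 478 of 19537 genes tested.

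**Figure D2:**
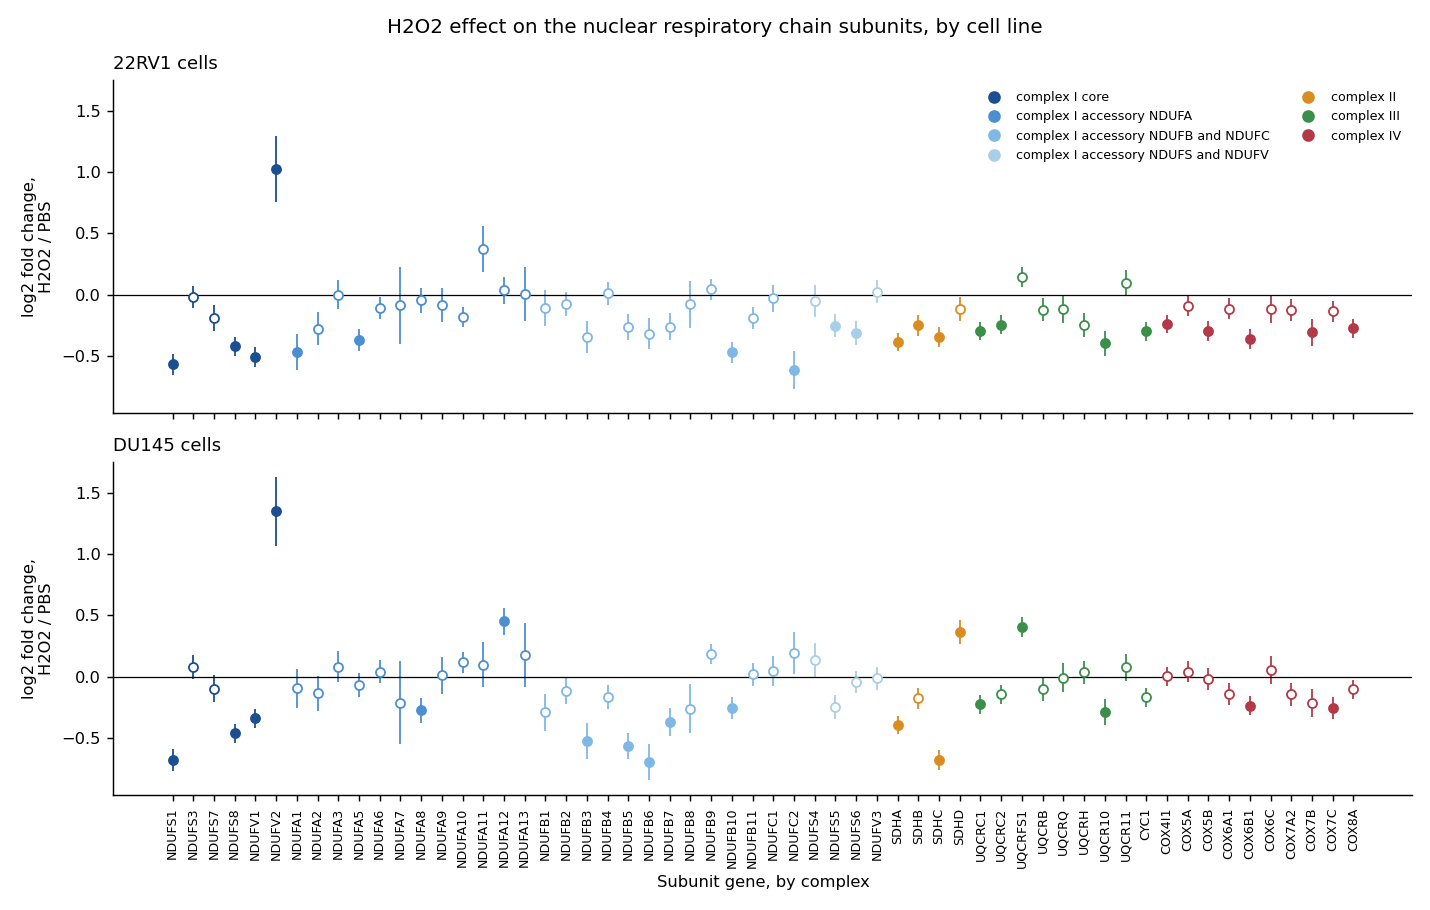
Log2 fold change of H2O2 against PBS (y axis) for each of the 58 subunit genes (x axis, by complex) in 22RV1 cells (top) and DU145 cells (bottom); points are edgeR estimates over the 2 pairs of a line, bars are SE, and filled points are called at an adjusted p under 0.05. Most points lie just below 0 in 22RV1 cells, NDUFV2 stands above 1 in both lines, and SDHD and UQCRFS1 rose in DU145 cells.

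The test of the difference between the lines called 3 of the 58 genes, against 21.2% of all genes, so the share was well below the background. In complex II, both anchors differed, in opposite directions. SDHC was at 182 and 184 CPM with PBS and 133 and 156 with H2O2 in 22RV1 vector and PAGE4 cells, and at 183 and 183 with PBS and 116 and 112 with H2O2 in DU145 cells. It thus lay at nearly the same level with PBS in both lines and fell further in DU145 cells (difference of log2 fold changes, DU145 minus 22RV1, -0.34 ± 0.12, adjusted p = 0.0442). SDHD was at 46.4 and 43.9 with PBS and 45.1 and 38.4 with H2O2 in 22RV1 cells, and at 56.9 and 52.7 with PBS and 71.5 and 69.8 with H2O2 in DU145 cells. The H2O2 libraries were the highest in DU145 cells and the ranges overlapped in 22RV1 cells (difference 0.48 ± 0.14, adjusted p = 0.0166). NDUFC2, of the membrane arm of complex I, was at 21.6 and 17.5 with PBS and 14.4 and 11.1 with H2O2 in 22RV1 cells, and at 7.71 and 6.81 with PBS and 9.24 and 7.43 with H2O2 in DU145 cells (difference 0.81 ± 0.23, adjusted p = 0.0172). It fell in 22RV1 cells, and in DU145 cells its ranges overlapped. Without either DU145 pair 0 genes were called, without the 22RV1 PAGE4 pair 1 and without the 22RV1 vector pair 6.

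Pair by pair, few subunit genes passed a 1.5-fold difference, the limit the study used. With H2O2, 5 of the 58 did in 22RV1 vector cells (all genes 38.3%), 2 in 22RV1 PAGE4 cells (30.7%), 6 in DU145 vector cells (40.5%) and 3 in DU145 PAGE4 cells (41.4%). NDUFV2 was higher in each pair, with log2 ratios of 1.01, 1.04, 1.25 and 1.43. NDUFS1 was lower by more than 1.5-fold in 22RV1 vector cells (-0.71, 95% interval -0.75 to -0.66) and in both DU145 pairs (-0.71 and -0.65), but not in 22RV1 PAGE4 cells (-0.43, interval -0.48 to -0.38). NDUFC2 was lower in both 22RV1 pairs, NDUFV1 was lower and NDUFA11 higher in 22RV1 vector cells, SDHC was lower in both DU145 pairs, and NDUFB3, NDUFB5 and NDUFB6 in DU145 vector cells. The intervals are exact Clopper-Pearson intervals and cover counting error only. The counts were repeated, as chosen after the values were seen, among genes with a mean count of at least 500. There, 3 of 53 subunit genes passed in 22RV1 vector cells against 23.1% of all genes, 1 of 53 against 14.1% in 22RV1 PAGE4 cells, 3 of 44 against 29% in DU145 vector cells, and 2 of 44 against 30.5% in DU145 PAGE4 cells. The share of the subunit genes was below that of all genes in each of these pairs.

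**Figure D3:**
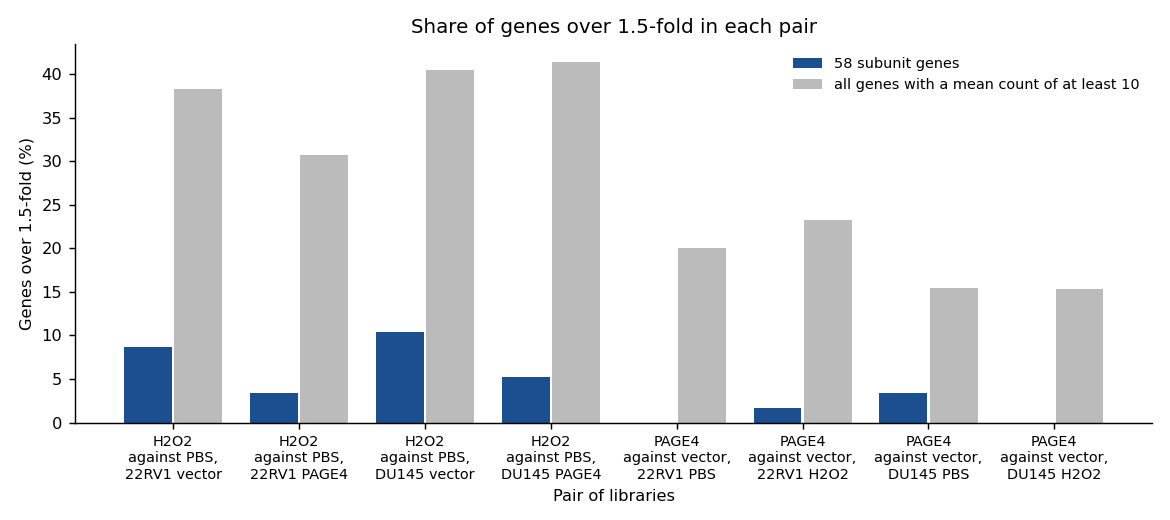
Percent of genes over 1.5-fold (y axis, from 0) in each of 8 pairs of libraries (x axis), for the 58 subunit genes (blue) and for all genes with a mean count of at least 10 in the line (grey). The blue bar is below the grey bar in each pair, and 0 subunit genes passed in 2 of the PAGE4 pairs.

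With PAGE4, no subunit gene was called in any comparison. Over the 4 pairs, 0 of the 58 genes were called by edgeR, against 0.138% of all genes, with 6 at an unadjusted p under 0.05 and none called by the Wald test of DESeq2 either. Log2 fold changes ran from -0.65 for NDUFA7 to 0.34 for NDUFA13, with a median of 0.06. Within 22RV1 cells 0 were called, against 5.36% of all genes, with 12 at an unadjusted p under 0.05. Within DU145 cells 0 were called, against 0.328%, with 7 at an unadjusted p under 0.05, and 47 of the 58 log2 fold changes were positive, with a median of 0.08. In the single DU145 pairs the median of the 58 was 0.075 with PBS and 0.086 with H2O2, against 0.01 and 0.002 over all genes. The test of the difference between lines called 0, against 2.66% of all genes, with 7 at an unadjusted p under 0.05. The shares of all genes with a positive change or an unadjusted p under 0.05 were not set beside these counts. The counts are thus a description and do not show a shift of the subunit genes.

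By fold change, 0 of the 58 genes passed 1.5-fold between PAGE4 and vector cells in 22RV1 cells with PBS (all genes 20%), 1 in 22RV1 cells with H2O2 (23.2%), 2 in DU145 cells with PBS (15.4%) and 0 in DU145 cells with H2O2 (15.3%). These were NDUFA7 and NDUFA13, accessory subunits of complex I that are both largely overlapped by other genes. NDUFA7 was at 2.94 CPM in vector and 2.11 in PAGE4 cells with PBS and at 3.22 and 1.66 with H2O2 in 22RV1 cells, and at 2.79 and 1.69 with PBS and 2.19 and 1.62 with H2O2 in DU145 cells. PAGE4 libraries were thus lower in every pair, on 40 to 129 reads (log2 fold change -0.65 ± 0.22, adjusted p = 0.496). NDUFA13 was at 2.03 CPM in vector and 3.26 in PAGE4 cells of DU145 with PBS. With a mean count of at least 500, 0 subunit genes passed in any PAGE4 pair, against 2.82% and 4.84% of all genes in 22RV1 cells and 0.853% and 0.495% in DU145 cells. In every pair 4 genes were lower with PAGE4 (all genes 7.94%) and 9 were higher (all genes 8.8%).

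Whether the H2O2 effect differed between PAGE4 and vector cells was tested over both lines, with 1 residual degree of freedom. The test called 0 of the 58 genes, against 0.118% of all genes, and 0 of them had an unadjusted p under 0.05. Among the other genes listed, it called the mitochondrially encoded MT-CO2 (PAGE4 minus vector, 0.463 ± 0.090, adjusted p = 0.00451) and MT-CO3 (0.407 ± 0.095, adjusted p = 0.0419). It also called the oxidant-response gene HMOX1 (-0.845 ± 0.171, adjusted p = 0.00601), and no further gene of the lists. NDUFS1 in 22RV1 cells fell from 212 to 130 CPM with the vector and from 230 to 170 with PAGE4, whereas in DU145 cells both constructs gave nearly the same values, and the test over both lines gave a difference of 0.17 ± 0.12 (SE, adjusted p = 1). A p that misses the threshold does not show that the effects were alike.

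More subunit genes differed between the cell lines than with either treatment. Of the 58 genes, 29 were higher and 10 lower in 22RV1 than in DU145 cells, against 32.7% and 30.6% of all genes, and the median log2 fold change was 0.29, against 0.05. For 28 genes every 22RV1 library lay above every DU145 library, and for 11 below. Together these are 67.2% of the 58, against 55.3% of all genes. The highest were NDUFA13 (1.55 ± 0.21, adjusted p = 0.000368), NDUFA5 (1.36 ± 0.12, adjusted p = 3.42e-05), NDUFB6 (1.29 ± 0.15, adjusted p = 0.000146), NDUFC1 (1.19 ± 0.12, adjusted p = 6.44e-05) and NDUFB2 (1.15 ± 0.10, adjusted p = 4.45e-05), which are accessory subunits of complex I. The lowest were NDUFS6 (-1.27 ± 0.12, adjusted p = 4.84e-05), NDUFB9 (-1.23 ± 0.10, adjusted p = 2.02e-05), NDUFA11 (-0.82 ± 0.18, adjusted p = 0.00463), NDUFA8 (-0.63 ± 0.11, adjusted p = 0.00163) and UQCRB (-0.61 ± 0.11, adjusted p = 0.00184).

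Subunits of one complex did not move together between the lines. NDUFA5 was at 72.8 to 108 CPM in 22RV1 and 33.4 to 35.5 CPM in DU145 cells. NDUFS6, a zinc-binding accessory subunit, was at 38.5 to 53.3 CPM in 22RV1 and 101 to 122 CPM in DU145 cells, so the order was opposite within complex I and without overlap for either gene. NDUFB9 was at 65.0 to 74.6 in 22RV1 and 147 to 183 CPM in DU145 cells. NDUFA genes split into 7 higher and 2 lower in 22RV1 cells, and NDUFB and NDUFC genes into 9 and 1. In complex II, SDHA (-0.57 ± 0.09, adjusted p = 0.000982) and SDHD (-0.52 ± 0.13, adjusted p = 0.00954) were lower in 22RV1 cells, while SDHB (0.13 ± 0.09, adjusted p = 0.246) and SDHC (0.16 ± 0.11, adjusted p = 0.241) were not called. Complex III had 4 higher and 1 lower. Complex IV had 6 higher and 2 lower, COX5B higher (1.08 ± 0.11, adjusted p = 7.9e-05) and COX5A lower (-0.27 ± 0.10, adjusted p = 0.0354). With total counts 35 of the 58 genes were higher and 8 lower, with 7 higher and 0 lower in complex IV.

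Position went with these differences. The genes lower in 22RV1 cells included NDUFS6 and SDHA, both near the end of the short arm of chromosome 5, and NDUFB9, UQCRB and COX6C on chromosome 8. For each of 55 members with at least 10 other tested genes within 2 Mb on GENCODE 44, the median log2 fold change of those neighbours, members left out, was set beside the member's own. Around NDUFS6, and likewise SDHA, 26 neighbours had a median of -1.25, and 84.6% of them were lower in 22RV1 cells. Around NDUFA5, on chromosome 7, 10 neighbours had a median of 2.102, and around NDUFB2, also on chromosome 7, 26 had a median of 1.07. The medians were -0.42 around NDUFB9, -0.46 around UQCRB and -0.63 around COX6C. The neighbours' median was negative for all 10 members called lower, and positive for 21 of 27 called higher. It was also negative for most of the members that were not called. How often a gene and its neighbours share a direction among all tested genes was not computed. NDUFC2 went against its surroundings, at 1.02 with a neighbours' median of -0.63. Over the 55 members, Pearson's r was 0.66 and Spearman's rho 0.70, given as a description, since members and neighbours come from the same libraries and some members share neighbours. This comparison was chosen after the values were seen, and 82.4% of the 19537 tested genes could be placed by symbol.

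**Figure D4:**
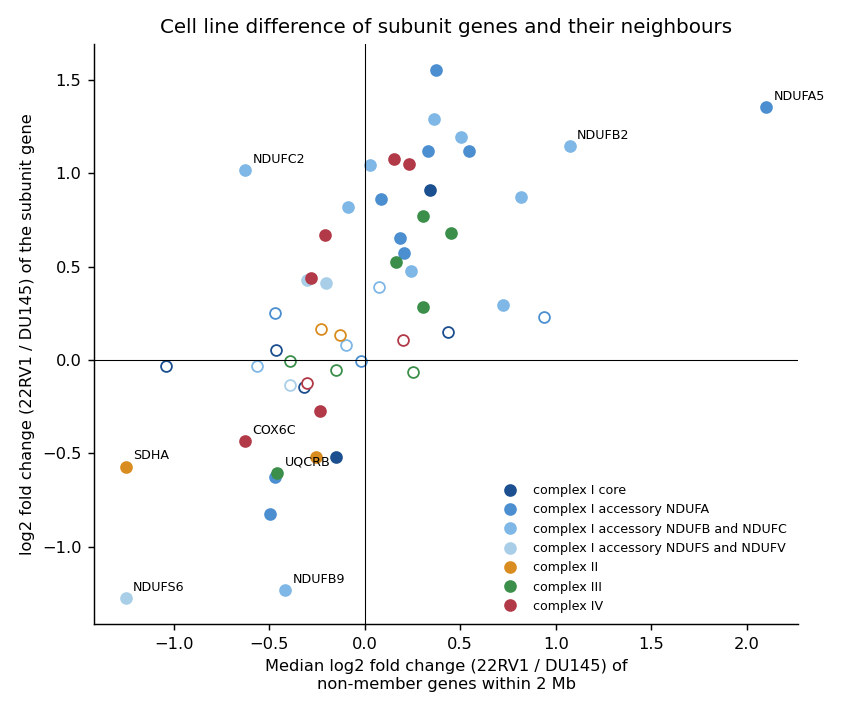
Log2 fold change between 22RV1 and DU145 cells of each of 55 subunit genes (y axis) against the median of the other tested genes within 2 Mb (x axis), coloured by complex; filled points are called at an adjusted p under 0.05. NDUFS6 and SDHA lie at the lower left with a neighbours' median of -1.25, NDUFA5 and NDUFB2 at the upper right, and NDUFC2 lies against the trend.

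The other genes of the pathway gave the setting. Their counts of calls with H2O2 are to be read beside all genes tested. Of those, 20% fell and 12.9% rose in 22RV1 cells, and 21.7% fell and 20.8% rose in DU145 cells. With H2O2, mitochondrially encoded subunits of complexes I, III and IV had larger changes than most nuclear ones. All 11 fell in DU145 cells, with a median log2 fold change of -2.33, and 9 fell and 2 rose (MT-ND1 and MT-ND2) in 22RV1 cells, with a median of -0.72. With total counts 11 fell in DU145 cells, and 8 fell and 2 rose in 22RV1 cells. MT-CO1, the catalytic subunit of complex IV, went from 18700 to 4690 CPM in DU145 vector cells and from 19800 to 7250 in 22RV1 vector cells. COX4I1, the nuclear partner described above, stayed between 229 and 262 CPM in the 4 DU145 libraries. In 22RV1 cells COX4I1 fell, as given above, but it was not called lower there with total counts. Levels of the nuclear and mitochondrial subunits of one complex thus changed unequally within the same libraries.

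Of 16 ATP synthase genes, 13 fell in 22RV1 and 7 in DU145 cells, with medians of -0.30 and -0.18, and with total counts 5 and 7 fell. ATP5MC1, which encodes the ring subunit, fell most in both (-0.57 ± 0.08, adjusted p = 2.12e-05, and -0.71 ± 0.08, adjusted p = 8.9e-07). Of 16 electron carrier and citric acid cycle genes, 10 fell in 22RV1 cells (5 with total counts), and 5 fell and 4 rose in DU145 cells. OGDH, of the oxoglutarate dehydrogenase complex, was the lowest in both (-0.76 ± 0.08, adjusted p = 2.46e-07, and -1.001 ± 0.08, adjusted p = 5.46e-09), and CYCS, which encodes cytochrome c, rose in DU145 cells (0.59 ± 0.07, adjusted p = 2.01e-06).

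Assembly factors moved in both directions, as did all genes tested by the shares given above. Among 14 factors of complex I, 1 rose and 5 fell in 22RV1 cells, FOXRED1 lowest (-1.07 ± 0.08, adjusted p = 7.82e-09), and 5 rose and 5 fell in DU145 cells, with NDUFAF4 highest (0.92 ± 0.14, adjusted p = 2.49e-05) and TIMMDC1 lowest (-0.81 ± 0.10, adjusted p = 1.68e-06). Among 22 factors of complex IV, 1 rose and 5 fell in 22RV1 cells (2 and 2 with total counts), and 6 rose and 5 fell in DU145 cells. COX19, which takes part in copper handling, rose in both lines (0.60 ± 0.11, adjusted p = 0.000251, and 1.28 ± 0.11, adjusted p = 2.05e-08), and COA3, needed for COX1 synthesis, fell in both (-0.71 ± 0.11, adjusted p = 3.22e-05, and -1.04 ± 0.12, adjusted p = 4.44e-07). Of 4 complex II factors, 2 fell in 22RV1 cells, and 2 rose and 1 fell in DU145 cells. Of 6 complex III factors, 3 fell in 22RV1 cells, and 2 rose and 3 fell in DU145 cells, with TTC19 highest (1.01 ± 0.10, adjusted p = 1.09e-07). Of 9 tissue isoforms and paralogues, 5 were tested, 0 were called in 22RV1 cells (0 at an unadjusted p under 0.05) and COX7A2L rose in DU145 cells (0.32 ± 0.10, adjusted p = 0.0162).

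Of 14 transcriptional regulators of respiratory genes, 4 fell in 22RV1 cells, among them GABPA (-0.40 ± 0.11, adjusted p = 0.00802) and PPARGC1B (-0.41 ± 0.12, adjusted p = 0.0139), and 6 rose in DU145 cells. With total counts 1 fell and 1 rose in 22RV1 cells, and 6 rose in DU145 cells. TFAM, which packages and transcribes mitochondrial DNA (0.75 ± 0.09, adjusted p = 2.15e-06), the mitochondrial transcription factor TFB2M (0.87 ± 0.11, adjusted p = 1.8e-06) and PPRC1, a coactivator (0.76 ± 0.08, adjusted p = 3.38e-07), were among those that rose. In the same DU145 libraries all 11 mitochondrially encoded subunits fell.

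**Figure D5:**
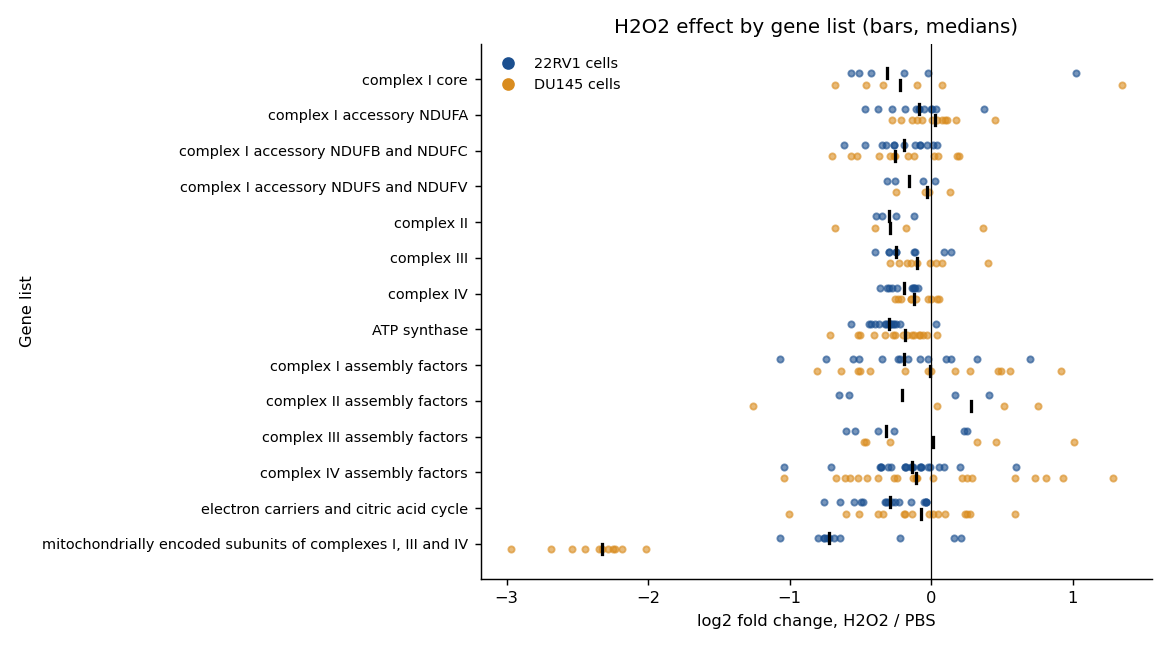
Log2 fold change of H2O2 against PBS (x axis) of each tested gene in 14 lists (y axis) in 22RV1 (blue) and DU145 cells (orange); black bars are the medians of a list. The nuclear subunit lists lie near 0, while the mitochondrially encoded subunits have medians of -0.72 and -2.33.

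With PAGE4, 3 mitochondrially encoded subunits (MT-ND1, MT-ND2 and MT-ND3) fell in 22RV1 cells, FOXRED1 rose (0.35 ± 0.08, adjusted p = 0.0158), and so did ETFB, an electron carrier (0.43 ± 0.12, adjusted p = 0.0358), and the cycle enzyme FH (0.31 ± 0.08, adjusted p = 0.0267). MT-ND1 had a log2 fold change of -0.59 ± 0.06 (adjusted p = 1.21e-06). No gene of these lists, of the ATP synthase or of the regulators was called with PAGE4 in DU145 cells. The edgeR test of the difference between lines called MT-ND1 (adjusted p = 0.00499), MT-ND2 (adjusted p = 0.0104) and MT-ND3 (adjusted p = 0.00118). It did not call FOXRED1 (adjusted p = 0.276), FH (adjusted p = 0.131) or ETFB (adjusted p = 0.98). In DU145 cells ETFB had a log2 fold change of 0.40 ± 0.13, close to that in 22RV1 cells. Between the lines, 10 of 16 carrier and cycle genes were higher in 22RV1 cells and 0 lower, and of the ATP synthase genes 6 were higher and 1 lower, ATP5MF highest (1.81 ± 0.11, adjusted p = 6.6e-06).

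The mean log2 CPM of the 58 genes was 5.86 and 5.91 with PBS and 5.72 and 5.71 with H2O2 in 22RV1 vector and PAGE4 cells, and 5.51 and 5.56 with PBS and 5.39 and 5.502 with H2O2 in DU145 cells. On this TMM scale the 22RV1 libraries were all above the DU145 libraries, and within each line the H2O2 libraries were below the PBS libraries. In DU145 cells this order rests on a small gap, 5.502 with H2O2 in PAGE4 cells against 5.512 with PBS in vector cells. The members' median in the 22RV1 vector pair went the other way with total counts (0.05). The mean profile itself was not computed with total counts. Among 12913 other genes with a mean count of at least 100, those most like this mean profile over the 8 libraries were ATP5L (Pearson's r = 0.993), PKMYT1 (0.992), YBX2 (0.990), TCEA2 (0.989) and CDKN2D (0.988). ATP5L is an older symbol of the ATP synthase gene ATP5MG. The points share the split by cell line, and 460 genes had an r above 0.95, so the likeness is a description only.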

How the data were processed

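RNA-seq counts of 8 libraries were used, 1 for each cell line, construct and treatment. By the submitters' processing notes and the study's methods, the authors used HISAT2 2.1.0 for mapping, on GRCh38, and featureCounts 1.6.0 for counting; the annotation, strand setting and treatment of shared reads are not given in the sources used here. What they deposited is unnormalized read counts by gene symbol, separately for each line. Among the symbols, 26 read as dates; none is a member.

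All genes were fitted with edgeR 4.0.16 in R 4.3.3 (TMM, filterByExpr by line, glmQLFit, glmQLFTest), with pairs of libraries as blocks. They were called at a Benjamini-Hochberg adjusted p under 0.05 over 19537 genes. Effects over the pairs had 3 residual degrees of freedom, and H2O2 by construct had 1. Effects within a line had 2, shared by both lines in a single fit. CPM are TMM-scaled. Log2 ratios within pairs used a pseudocount of 0.5, a limit of 1.5-fold and a mean count of at least 10 in the line. The edgeR step was tested on simulated data that held no cell line difference and no pair effect. That test thus does not check the fit where these are present. Positions and lengths come from GENCODE 44 and promoters from RefSeq. Alternatives were DESeq2 1.42.0 (size factors, Wald test), total counts, no filter, added pseudogene reads, other limits, pseudocounts and lengths, and each pair left out.

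Genes named are those called with the 5 highest and 5 lowest changes per comparison, those over 1.5-fold in a pair, the redox and core subunits, the extremes in level, and up to 3 genes of other lists. The members and lists were chosen with earlier results of these data known. Lists over genes were described by counts and medians and not tested.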

Additional observations from a re-analysis of the deposited data

Results flagged for a closer look

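The 3 genes SDHC, SDHD and NDUFC2 were set apart because the effect of H2O2 differed between the cell lines by the test of the difference (DU145 minus 22RV1, edgeR with adjusted p). The difference of log2 fold changes was -0.335 for SDHC (adjusted p = 0.0442), which fell in both lines and further in DU145 cells. It was 0.484 for SDHD (adjusted p = 0.0166), which rose in DU145 cells, against a value of -0.12 in 22RV1 cells, not called. It was 0.812 for NDUFC2 (adjusted p = 0.0172), which fell in 22RV1 cells, against a value of 0.20 in DU145 cells, not called. Without the DU145 vector pair or the DU145 PAGE4 pair 0 of the 3 were called, and without the 22RV1 PAGE4 pair NDUFC2 alone. NDUFC2 rests on 183 to 947 reads per library. No group has a second library, so no library could be compared with others of its condition.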

How the results depend on the processing

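With total counts in place of TMM, 7 genes were called with H2O2 over the 4 pairs (12 with TMM) and 9 in 22RV1 cells (22). With the Wald test of DESeq2, 14 were called in 22RV1 cells and 1 for the difference between lines (3). Leaving out each pair in turn gave 3 to 7 calls with H2O2 over the pairs, 15 to 18 in 22RV1 cells, 10 to 22 in DU145 cells (19), 0 to 6 for the difference between lines and 34 to 38 for the cell lines (39). For PAGE4 within 22RV1 cells it gave 0 to 1, the 1 without the PBS pair, where the median of the 58 genes turned from 0.036 to -0.015; without the H2O2 pair it was 0.067. In pairs over 1.5-fold, 22RV1 vector cells with H2O2 gave 5 genes, but 3 with size factors within the line, 2 with total counts, 1 at 2-fold and 3 at a mean count of at least 500. The 22RV1 PAGE4 pair gave 1 in place of 2 with total counts, at 2-fold and at a mean of 500. DU145 vector cells gave 1 at 2-fold and 3 at a mean of 500 in place of 6, and DU145 PAGE4 cells 1 at 2-fold in place of 3. For PAGE4 in 22RV1 cells with H2O2 and in DU145 cells with PBS, 0 passed at 2-fold and at a mean of 500. The median level per kilobase was 54.8 CPM with the main transcript's length. The minimum of 500, the other scalings of the pathway lists and leaving out overlapped members were chosen after seeing the data; the last gave 10, 20, 17 and 36 calls for H2O2 over the pairs, in 22RV1 and in DU145 cells and for the lines. With total counts in 22RV1 cells, genes that fell with H2O2 went from 13 to 5 for ATP synthase, from 10 to 5 for carriers and cycle genes, from 4 to 0 for complex III and from 5 to 0 for complex IV, and in the 22RV1 vector pair 23 of the 58 genes were lower in place of 45. Of the single genes named, 35 values kept their direction and lost the call. Beyond the constructions themselves, the cause was not tested. No paired analysis by replicate number was possible because the labels give none; the pairs of libraries already entered each fit as blocks.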
